A study of Mus musculus with 6 samples.

Results

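The genes described here are 40 genes of mitosis, the step in which a cell separates its copied chromosomes and then splits. They were taken by name as a set, each was linked to a locus of the deposited transcript file by its exon and intron lengths, and all 40 were found, out of 39470 loci counted. Dividing cells carry these RNAs for a short part of their cycle: cyclins and kinases start mitosis, kinetochores tie chromosomes to the spindle, a checkpoint holds the cell until all are tied, motor proteins build the spindle, and a contractile ring cuts the cell. Most endocrine cells of adult islets rest, so such RNAs are scarce there, and in mice a fat-rich diet is known for an increase in beta-cell number. Many of these genes are silent in resting cells through a shared repressor complex, and are switched on together late in the cycle.

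The high fat group held 3 libraries from islets of C57BL/6 mice killed at 14 weeks of age after 8 weeks of that diet, and the normal diet group held 3 libraries from mice of the same strain and age fed a normal diet for as long. Islets are the hormone-making cell clusters of the pancreas, here isolated and extracted whole, so that every cell type in them contributed RNA. The count columns call the diets ND and HDR. ND was read as normal diet and HDR, which no source used here spells out, as high fat diet, and each direction below rests on that reading. No label says which libraries came from separate mice, so p-values measure the spread between libraries. Totals ran from 104657337 to 135353777 counted reads. The islet label fitted the markers, with Iapp, the beta-cell peptide amylin, at 53250 to 64980 CPM, counts scaled to library size with edgeR's TMM factors, in high fat libraries and 34800 to 36200 CPM in normal diet libraries. Genes of acinar cells, the enzyme-making cells around islets, took 0.477%, 1.01% and 0.826% of counts in high fat libraries 1, 2 and 3, against 0.391%, 0.721% and 0.638% in normal diet libraries 1, 2 and 3. On the second principal component high fat libraries 1, 2 and 3 lay at 19.6, 18.5 and -35.2, so that the last was far from its group.

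The diet comparison asked which RNAs differ in islets of mice made obese by diet. All 40 mitosis genes had a positive log2 fold change, high fat over normal diet, except that Kif15 and Ncapd2 read -0.0336 and -0.072 when libraries were scaled by their totals alone. Among the 23983 loci tested 45.5% were positive. The edgeR quasi-likelihood test, with p-values adjusted over all loci (Benjamini-Hochberg) and a threshold of 0.05, called 15 of the 40 higher (37.5%) and 0 lower, at adjusted p-values of 0.011 to 0.049. Among all loci 5.95% were higher and 4.86% lower, 10.8% in all. Scaling by totals alone shifted the median of all loci to -0.252 and called 6 of the 40 higher, with 300 loci higher and 3039 lower, against 1426 and 1165 by TMM. The median log2 fold change of the 40 was 0.895, or 1.86-fold, beside -0.0496 for all loci. For 32 of the 40 every high fat library lay above every normal diet library, which held for 18.8% of all loci, while 20.4% of all loci had every high fat library below. In whole islets, more dividing cells and more RNA per dividing cell cannot be told apart, and the cell type that carried these RNAs was not identified. The 25 genes that missed the threshold had adjusted p-values of 0.052 to 0.68, and 10 of them lay at 0.07 or less. An unadjusted p under 0.05 was reached by 34 of the 40, against 31.8% of all loci. DESeq2 called 31 of the 40 higher and 0 lower, beside 2242 higher and 1824 lower of 23983 loci.

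**Figure D1:**
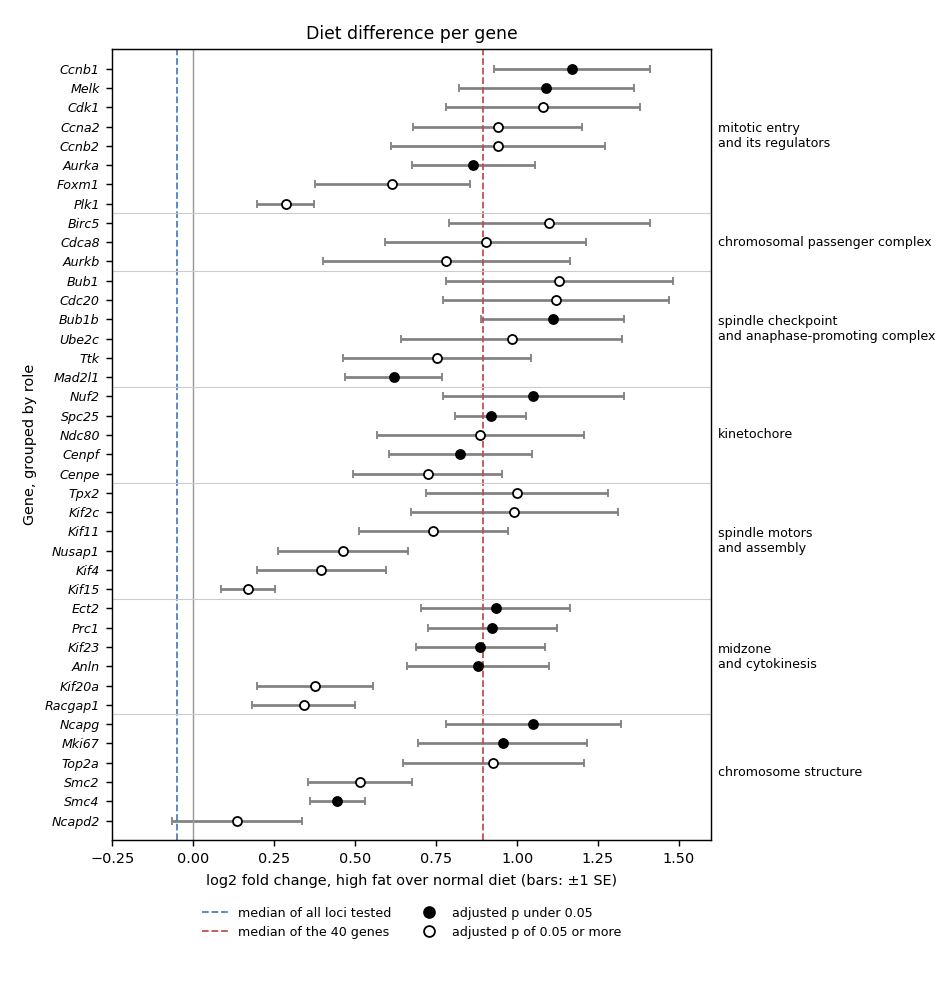
Log2 fold change of each of the 40 genes, high fat over normal diet, with bars of 1 SE, on 3 libraries per diet. Genes are grouped by role, filled points passed the adjusted p of 0.05, and dashed lines mark the medians of the 40 genes (0.895) and of all loci tested (-0.0496). All 40 points lie right of 0 (under totals alone Kif15 and Ncapd2 do not), and the spindle motors Kif15 and Kif4 and the condensin subunit Ncapd2 are among those nearest to it.

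The count of calls changed with the libraries in the fit, for the 40 genes and for all loci. Without high fat library 1 or 2 the same test called 1 gene each time, Spc25, beside 0.377% and 0.225% of all loci. Without high fat library 3 it called 35, beside 12.4% of all loci. Without normal diet library 1, 2 or 3 it called 0 of the 40 and 0% of all loci, so that every edgeR call given below was lost there too. An unadjusted p under 0.05 was reached there by 28, 25 and 29 of the 40. Of all loci it was reached by 5500 of 24558, 6286 of 24925 and 6294 of 24580. The sign did not turn for any of the 40 in these 6 fits. Their median stayed between 0.839 and 1.1 in 5 of them and was 0.552 without high fat library 2.

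**Figure D2:**
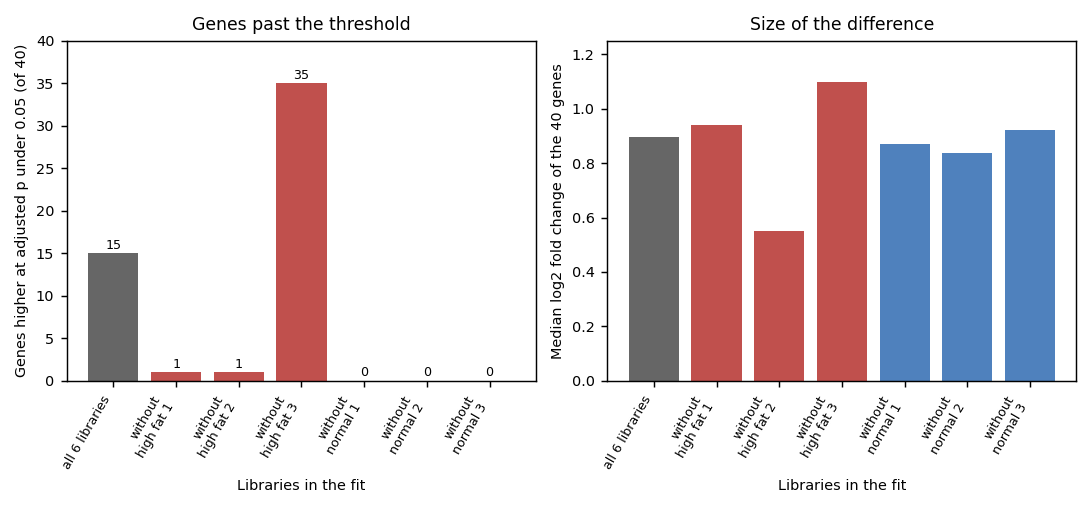
Number of the 40 genes higher at an adjusted p under 0.05 (left) and their median log2 fold change (right), with all 6 libraries and with each library left out. The count moves between 0 and 35 while the median stays between 0.552 and 1.1.

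The difference was uneven among the high fat libraries. High fat library 2 had the highest level of 38 of the 40 genes, and high fat library 3 the highest of the other 2, Plk1 and Ncapd2. Within the high fat group, library 3 was lowest for 35 genes and library 1 for 5. The level in high fat library 2 was 1.92 times that in high fat library 3 at the median gene, from 0.916 times for Plk1 to 3.38 times for Aurkb. Library 3 still lay above the normal diet mean for 39 of the 40, by 1.28 times at the median. High fat libraries 1, 2 and 3 exceeded every normal diet library for 38, 39 and 33 of the genes. The coefficient of variation had a median of 34.7% in high fat libraries and 8.3% in normal diet libraries, and was larger in the high fat group for 39 of 40 genes.

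The 40 genes moved together from library to library. Over the 780 pairs the median Pearson r across 6 libraries was 0.942, and 0.916 after each diet's mean had been subtracted. These are descriptions: the points share the same 6 libraries, their depth and their diet. No such r is given here for other genes, so whether the joint movement is particular to the 40 was not tested. The genes lie on 16 chromosomes, 7 of them on chromosome 2.

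**Figure D3:**
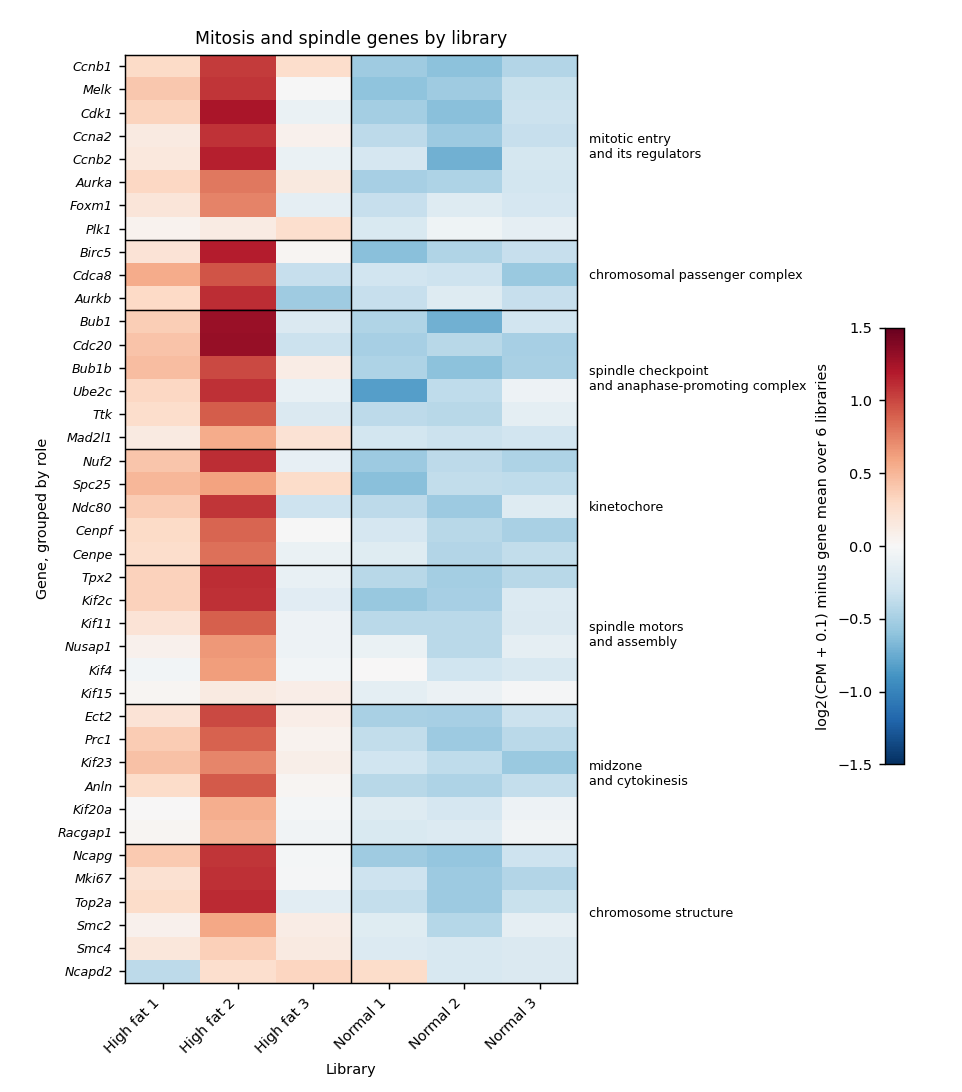
Level of each gene in each library as log2(CPM + 0.1) minus that gene's mean over the 6 libraries, with high fat libraries on the left and normal diet libraries on the right. The column of high fat library 2 is darkest red in nearly all rows, high fat library 3 is near the mean, and the normal diet columns are blue except in normal diet library 1, where Ncapd2 is above its mean and Kif4 at it.

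The promoters of these genes share short letters that the choice of genes did not use. Late cell cycle genes are known for CCAAT boxes, bound by the factor NF-Y, and for an element near the start site called CHR, written TTTGAA or TTCGAA, through which the resting-cell repressor acts. RefSeq windows of 300 bases on GRCm38.p6, 250 before and 50 after the start, were on hand for 34 of the 40 genes (36 windows). TTTGAA on either strand or TTCGAA, a palindrome, stood in 29 of the 36 (80.6%), against 19.2% of all 32851 windows. CCAAT on either strand stood in 27 of 36 (75%), against 37.4%, and at 2 or more places in 17 (47.2%), against 11.7%. Both kinds together were found in 69.4% of the members' windows and 7.52% of all. CCAAT and TTTGAA can share an end base. A match is only a run of letters, and no binding was measured.

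Printed below, from 120 bases before to 30 after the start, 5′ to 3′, are the windows of the 4 genes with the smallest p that hold a motif there, Spc25, Bub1b, Ccnb1 and Prc1. Ccnb2 was added after its window had been seen, since it holds 3 CCAAT boxes. Capitals mark CCAAT (or ATTGG, its other strand) and TTTGAA.
Spc25 (chr2:69206184-69206333, minus strand): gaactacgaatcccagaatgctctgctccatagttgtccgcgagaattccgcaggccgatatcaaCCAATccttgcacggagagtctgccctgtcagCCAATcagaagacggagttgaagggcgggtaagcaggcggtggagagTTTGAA
Bub1b (chr2:118598091-118598240, plus strand): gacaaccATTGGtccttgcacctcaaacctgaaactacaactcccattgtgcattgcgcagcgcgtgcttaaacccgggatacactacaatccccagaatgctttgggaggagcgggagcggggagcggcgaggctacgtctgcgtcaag
Ccnb1 (chr13:100786457-100786606, minus strand): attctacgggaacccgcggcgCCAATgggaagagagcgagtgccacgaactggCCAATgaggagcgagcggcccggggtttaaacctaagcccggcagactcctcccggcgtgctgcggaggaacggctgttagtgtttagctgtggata
Prc1 (chr7:80294331-80294480, plus strand): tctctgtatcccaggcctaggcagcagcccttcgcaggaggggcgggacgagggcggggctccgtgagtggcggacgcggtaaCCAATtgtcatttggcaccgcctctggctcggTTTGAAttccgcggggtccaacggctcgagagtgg
Ccnb2 (chr9:70421525-70421674, minus strand): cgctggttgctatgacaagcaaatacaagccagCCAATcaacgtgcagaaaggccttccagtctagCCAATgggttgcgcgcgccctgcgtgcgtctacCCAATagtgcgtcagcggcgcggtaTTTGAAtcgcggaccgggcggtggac

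Neighbouring CCAAT boxes begin 32 bases apart in Spc25 and in Ccnb1, and 33 bases apart at both steps in Ccnb2. TTTGAA begins 5 bases before the start in Prc1, at base 5 of the transcript in Ccnb2 and at base 25 in Spc25. Neither of the searched CHR spellings is in the Ccnb1 window of 300 bases, and Ccnb1 had the largest fold change of the 40 genes.

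The genes of mitotic entry are cyclins, their kinase and its regulators, and 3 of 8 passed the test. Beside the counts by role here and below, edgeR called 5.95% of all loci higher, and 31.8% had an unadjusted p under 0.05. Every high fat library lay above every normal diet library for 18.8% of all loci. Differences between the roles were not tested. Ccnb1, or cyclin B1, switches on the mitotic kinase. Its locus lies on chromosome 13 from 101548694 to 101556447 (minus strand, mm9). It had 2.05, 3.56 and 2.01 CPM in high fat libraries 1, 2 and 3, against 1.12, 1.05 and 1.20 CPM in normal diet libraries 1, 2 and 3. No high fat value came near the normal diet range, and the fold was 2.25 (log2 1.17, SE 0.24, edgeR adjusted p = 0.029). Aurka, the Aurora A kinase of the spindle poles, had 6.68, 9.37 and 5.97 CPM in high fat libraries and 3.77, 3.88 and 4.43 CPM in normal diet libraries (1.82-fold, edgeR adjusted p = 0.030). Melk, a kinase gene transcribed in dividing cells, had 2.33, 3.76 and 1.73 CPM in high fat libraries and 1.11, 1.18 and 1.36 CPM in normal diet libraries (2.13-fold, edgeR adjusted p = 0.042). For both genes the groups did not overlap and high fat library 2 was highest. The Melk locus holds 1.85 times the exonic bases of the reference gene, so its value is not that of the reference exons alone.

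Cdk1 encodes the mitotic kinase itself. It had 8.69, 16.2 and 6.39 CPM in high fat libraries and 4.80, 4.43 and 5.48 CPM in normal diet libraries, 2.12-fold with an edgeR adjusted p of 0.052, just outside the threshold, on a locus 3.59 times as long as the reference gene. Ccna2 and Ccnb2, cyclins A2 and B2, stood at 1.92-fold each with edgeR adjusted p-values of 0.052 and 0.092. Foxm1, the transcription factor that drives late cell cycle genes, stood at 1.53-fold with an edgeR adjusted p of 0.12. Its locus is 1.68 times as long as its gene and matched 2 annotated genes by exon and intron lengths. The value thus cannot be taken as that of Foxm1 alone. The groups of Cdk1, Ccna2, Ccnb2 and Foxm1 were separate. The Ccna2 locus has 13.4% of exonic bases in common with another. Plk1, the polo kinase, read 69.8, 73.7 and 80.4 CPM in high fat libraries and 57.8, 64.5 and 61.5 CPM in normal diet libraries (log2 fold change 0.285, edgeR adjusted p = 0.068). Its high fat libraries stood in an order, 3 above 2 above 1, that among the other genes Ncapd2 alone had. Its locus also carries the exon and intron lengths of Dctn5, a dynactin subunit gene, so its value is not that of Plk1 alone.

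Of the chromosomal passenger complex, which corrects faulty attachments of chromosomes, 0 of 3 genes passed by edgeR. Aurkb, its kinase, had 1.48, 2.66 and 0.787 CPM in high fat libraries and 0.912, 1.02 and 0.912 CPM in normal diet libraries. High fat library 3 was the lowest of all 6, and the edgeR adjusted p was 0.19 at 1.72-fold. Birc5, or survivin, had 1.59, 3.20 and 1.40 CPM in high fat libraries and 0.848, 0.966 and 1.05 CPM in normal diet libraries, separate groups with a fold of 2.15 and an edgeR adjusted p of 0.054. Cdca8, or borealin, overlapped between the diets (1.87-fold, edgeR adjusted p = 0.086). An unadjusted edgeR p under 0.05 was reached by Birc5 and Cdca8, while that of Aurkb was 0.067.

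The spindle checkpoint and the anaphase-promoting complex, the ubiquitin ligase that it restrains, had 2 of 6 genes past the test. Bub1b, the checkpoint protein BubR1, lies on chromosome 2 from 118423947 to 118467328 (plus strand, mm9). It had 7.14, 10.3 and 5.6 CPM in high fat libraries and 3.71, 3.35 and 3.65 CPM in normal diet libraries. The lowest high fat value was 1.57 times the normal diet mean, and the fold was 2.15 (log2 1.11, SE 0.22, edgeR adjusted p = 0.026). Mad2l1, the checkpoint protein Mad2, had 6.67, 8.95 and 7.04 CPM in high fat libraries and 4.99, 4.81 and 4.94 CPM in normal diet libraries (1.54-fold, edgeR adjusted p = 0.036). Cdc20, the activator that the checkpoint blocks, had 5.18, 9.65 and 3.06 CPM in high fat libraries and 2.69, 2.84 and 2.69 CPM in normal diet libraries. Its groups were separate but high fat library 3 was only 1.12 times the normal diet mean, and the edgeR adjusted p was 0.069 at 2.17-fold. The kinase genes Bub1 and Ttk stood at 2.19-fold and 1.69-fold, and Ube2c, the ubiquitin-conjugating enzyme of the complex, at 1.98-fold, with edgeR adjusted p-values of 0.069, 0.12 and 0.091.

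The kinetochore genes had 3 of 5 past the test. Cenpf, a large coiled-coil kinetochore protein, had 7.78, 11.8 and 6.31 CPM in high fat libraries and 5.34, 4.73 and 4.51 CPM in normal diet libraries (1.77-fold, edgeR adjusted p = 0.047). Cenpe, a kinesin that carries chromosomes to the spindle middle, stood at 1.65-fold with an edgeR adjusted p of 0.074. Nuf2, Ndc80 and Spc25 encode subunits of the Ndc80 complex, which holds microtubule ends. Nuf2 had 4.42, 7.22 and 3.01 CPM in high fat libraries and 2.22, 2.49 and 2.35 CPM in normal diet libraries (2.07-fold, edgeR adjusted p = 0.049), and Ndc80 stood at 1.85-fold with 0.096 and overlapping groups.

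Spc25 had the smallest p of the 40 and a level far from its partners. Its locus, on chromosome 2 from 69031952 to 69044247 (minus strand, mm9), read 653, 698 and 557 CPM in high fat libraries, against 299, 357 and 353 CPM in normal diet libraries. The groups lay well apart, at 1.89-fold (log2 0.918, SE 0.11, edgeR adjusted p = 0.011). Unlike most of the 40 its high fat libraries differed little. Per kilobase of exon (RPKM) its level averaged 218 ± 24.6 on the high fat diet and 115 ± 11.1 on the normal diet (SD, n = 3 each). Ndc80 averaged 1.63 ± 0.779 and 0.877 ± 0.114 RPKM on the same diets, and Nuf2 1.68 ± 0.736 and 0.808 ± 0.0467 RPKM. Spc25 was thus 134 and 131 times Ndc80, and 130 and 142 times Nuf2, on the high fat and the normal diet. The complex holds its 4 subunits in equal number as background, and Spc24, the fourth, averaged 2.18 ± 0.998 RPKM on the high fat diet and 1.37 ± 0.161 RPKM on the normal diet.

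None of the exonic bases of the Spc25 locus is shared with another locus. The next gene, G6pc2, which encodes an islet glucose-6-phosphatase subunit, begins 13807 bases away on the opposite strand. G6pc2 had 3840, 3930 and 3500 RPKM in high fat libraries and 1970, 2220 and 2370 RPKM in normal diet libraries (1.72-fold, edgeR adjusted p = 0.011). Use of strand in counting is not given in the sources used here, and the part of the neighbour in the Spc25 counts was not tested. Without Spc25 and the 7 genes on loci that reach past the gene, the other 32 genes summed to 309, 461 and 269 CPM in high fat libraries 1, 2 and 3, against 214, 201 and 219 CPM in normal diet libraries 1, 2 and 3.

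**Figure D4:**
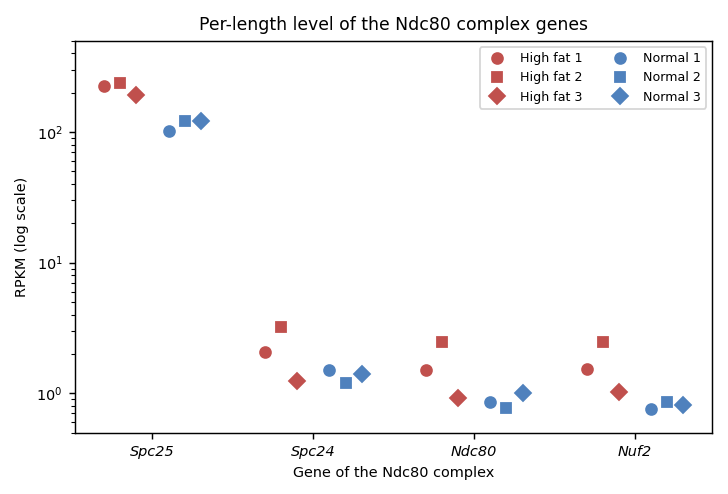
Level per kilobase of exon (RPKM, log axis) of the 4 genes of the Ndc80 complex in each library, high fat libraries left of normal diet libraries for each gene. Spc25 lies between 102 and 239 RPKM and its 3 partners between 0.762 and 3.23 RPKM.

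Of the spindle motors and assembly factors 0 of 6 passed by edgeR. Of the 6, 5 had every high fat library above, as did 18.8% of all loci. An unadjusted p under 0.05 was reached by Kif11, Kif2c, Tpx2 and Nusap1, and by 31.8% of all loci. Kif11, the motor that pushes spindle poles apart, had 11.1, 18 and 9.12 CPM in high fat libraries and 7.28, 7.28 and 8.27 CPM in normal diet libraries (1.67-fold, edgeR adjusted p = 0.068). Tpx2, which activates Aurora A on the spindle, had 6.11, 10.5 and 4.43 CPM in high fat libraries and 3.59, 3.34 and 3.58 CPM in normal diet libraries (2.00-fold, edgeR adjusted p = 0.053). Kif2c, a kinesin that takes microtubules apart, stood at 1.99-fold and Nusap1, a microtubule bundler, at 1.38-fold, with edgeR adjusted p-values of 0.073 and 0.15. The Nusap1 locus holds 3.56 times the exonic bases of the reference gene and has 11.1% of them in common with another locus, so its value cannot be taken as that of Nusap1 alone. Kif15, a motor that can stand in for Kif11, read 47.0, 50.7 and 49.4 CPM in high fat libraries and 41.9, 43.4 and 45.6 CPM in normal diet libraries. Its difference was small (log2 0.169, edgeR adjusted p = 0.20), and its locus also carries Tmem42. Kif4, a chromosome-bound kinesin whose locus also carries Arr3, stood at 1.32-fold with overlapping groups (edgeR adjusted p = 0.21). The Kif4 locus has 10.8% of exonic bases in common with another.

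The midzone and cytokinesis genes, which build the cleavage plane, had 4 of 6 past the test, beside 5.95% of all loci called higher. Prc1 cross-links microtubules of opposite direction in the midzone. It had 17.0, 24.3 and 13.6 CPM in high fat libraries and 10.1, 8.90 and 9.87 CPM in normal diet libraries (1.90-fold, edgeR adjusted p = 0.030). Ect2, which activates RhoA at the cleavage plane, had 8.34, 14.4 and 7.74 CPM in high fat libraries and 5.11, 5.07 and 5.75 CPM in normal diet libraries (1.91-fold, edgeR adjusted p = 0.040). In both genes the lowest high fat value was at least 1.41 times the normal diet mean. Kif23, the motor of centralspindlin, had 3.19, 3.91 and 2.47 CPM in high fat libraries and 1.87, 1.76 and 1.54 CPM in normal diet libraries (1.85-fold, edgeR adjusted p = 0.033). Anln, or anillin, a scaffold of the contractile ring, had 5.84, 9.17 and 4.91 CPM in high fat libraries and 3.59, 3.47 and 3.75 CPM in normal diet libraries (1.84-fold, edgeR adjusted p = 0.042). Racgap1, the partner of Kif23 in centralspindlin, had 20.6, 28.8 and 19.4 CPM in high fat libraries and 17.3, 17.5 and 19.5 CPM in normal diet libraries. High fat library 3 lay inside the normal diet range, with a fold of 1.27 and an edgeR adjusted p of 0.17. Kif20a, a midzone kinesin whose locus has 37.3% of exonic bases in common with another, stood at 1.30-fold (edgeR adjusted p = 0.18).

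Of the genes of chromosome structure 3 of 6 passed. Mki67, the Ki-67 antigen that coats mitotic chromosomes and is stained to count dividing cells, lies on chromosome 7 from 142881347 to 142908222 (minus strand, mm9). It had 15.7, 28.5 and 13.2 CPM in high fat libraries and 10.7, 9.12 and 9.78 CPM in normal diet libraries. The groups were separate, at 1.94-fold (log2 0.955, SE 0.26, edgeR adjusted p = 0.049). Top2a, the topoisomerase that untangles sister chromosomes, followed the same order among the high fat libraries. It had 38.9, 70.2 and 28.8 CPM in high fat libraries and 25.1, 21.9 and 25.5 CPM in normal diet libraries. Top2a missed the threshold (1.90-fold, edgeR adjusted p = 0.062).

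The other 4 encode subunits of condensin, which compacts chromosomes. Ncapg had 4.37, 7.04 and 3.22 CPM in high fat libraries and 2.24, 2.18 and 2.64 CPM in normal diet libraries (2.07-fold, edgeR adjusted p = 0.043). Its locus has 18.6% of exonic bases in common with another, so the value cannot be taken as that of Ncapg alone. Smc4, a core subunit, had 79.5, 90.6 and 77.8 CPM in high fat libraries and 61.2, 59.7 and 61.1 CPM in normal diet libraries, a smaller but steadier difference (log2 0.445, SE 0.086, edgeR adjusted p = 0.026). Smc2, its partner, stood at 1.43-fold (edgeR adjusted p = 0.064). Ncapd2 read 184, 288 and 304 CPM in high fat libraries and 295, 205 and 208 CPM in normal diet libraries, with the diets mixed (log2 0.135, edgeR adjusted p = 0.68). Its locus spans 1.38 times the reference gene and holds 2.32 times its exonic bases. Of the exonic bases of that locus 16.6% are in common with another.

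Outside Spc25 the set was scarce. Mean levels over the 6 libraries ran from 0.25 RPKM to 18.2 RPKM for the other 39 genes, and the median gene had 1.67 RPKM on the high fat diet and 0.93 RPKM on the normal diet. At this depth even the lowest value rested on 75 reads.

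Other genes of the cycle were read from lists chosen with earlier results of these data known. Of 59 further mitosis genes 9 rose and 0 fell by edgeR (30 and 0 by DESeq2), and 33 had an unadjusted p under 0.05. Among all loci 5.95% rose and 4.86% fell by edgeR, and 31.8% had an unadjusted p under 0.05. DESeq2 called 2242 higher and 1824 lower of 23983 loci. The median log2 fold change of the 59 was 0.669. The smallest p-values were those of Sgo2a, a shugoshin that guards chromosome cohesion, Hmmr, a spindle protein, and Dsn1 and Knstrn of the kinetochore. Hmmr had 8.86, 16.6 and 7.2 CPM in high fat libraries and 4.68, 4.51 and 5.07 CPM in normal diet libraries (log2 1.19, edgeR adjusted p = 0.036), while Sgo2a, Dsn1 and Knstrn rose by 0.896, 0.818 and 0.934 on the log2 scale. Without high fat library 1 or 2, or any normal diet library, 0 of the 59 passed by edgeR. Without high fat library 3, 39 rose, in a fit where 12.4% of all loci rose. The highest level per length on that list was that of Bub3, a checkpoint gene at 34.4 RPKM over all libraries, with a log2 fold change of 0.178 (edgeR adjusted p = 0.25).

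Genes of DNA replication, which comes earlier in the cycle than mitosis, moved less. Of 41, 3 rose and 1 fell by edgeR (7 and 1 by DESeq2), and 12 had an unadjusted p under 0.05. Among all loci 5.95% rose and 4.86% fell by edgeR, and 31.8% had an unadjusted p under 0.05. The edgeR counts for the replication list lay near these shares. Of 23983 loci DESeq2 called 2242 higher and 1824 lower. The median log2 fold change of the list was 0.284, against 0.895 for the 40 mitosis genes. The difference between the lists was not tested. Without high fat library 1 or 2, or any normal diet library, 0 replication genes passed by edgeR. Without high fat library 3, 18 rose and 2 fell, in a fit where 12.4% of all loci rose. Among the replication genes that rose were Rrm2 and Rrm1, both subunits of ribonucleotide reductase, by 0.929 and 0.492 on the log2 scale. The locus linked to Gins2, a subunit of the replicative helicase, fell to 10.2, 7.95 and 6.28 CPM in high fat libraries, against 17.5, 15 and 13 CPM in normal diet libraries (log2 -0.895, edgeR adjusted p = 0.030). That locus counts 32260 exonic bases and has 22.1% of them in common with another, so the fall cannot be taken as that of Gins2 alone. The replication list had its highest median in high fat library 2, at 0.411 above the mean over libraries on the log2 scale, while high fat library 3 stood at -0.172, inside the normal diet range of -0.201 to -0.0207. The 40 mitosis genes stood at 0.275, 0.93 and -0.0299 in high fat libraries 1, 2 and 3, against -0.38, -0.422 and -0.316 in normal diet libraries 1, 2 and 3.

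The D cyclins and inhibitors, which govern whether a cell enters the cycle at all, had 0 of 15 past the test in either direction by edgeR. DESeq2 called 1 higher and 1 lower, beside 2242 higher and 1824 lower of 23983 loci. An unadjusted p under 0.05 was reached by 5 of the 15, near the share of all loci, 31.8%. The median log2 fold change of the 15 was 0.0602. Ccnd2, the main D cyclin of beta cells, had 1184, 1120 and 1349 CPM in high fat libraries and 964, 1132 and 877 CPM in normal diet libraries (log2 0.297, edgeR adjusted p = 0.11). High fat library 2, the highest for mitosis genes, was the lowest of the high fat libraries for Ccnd2.

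**Figure D5:**
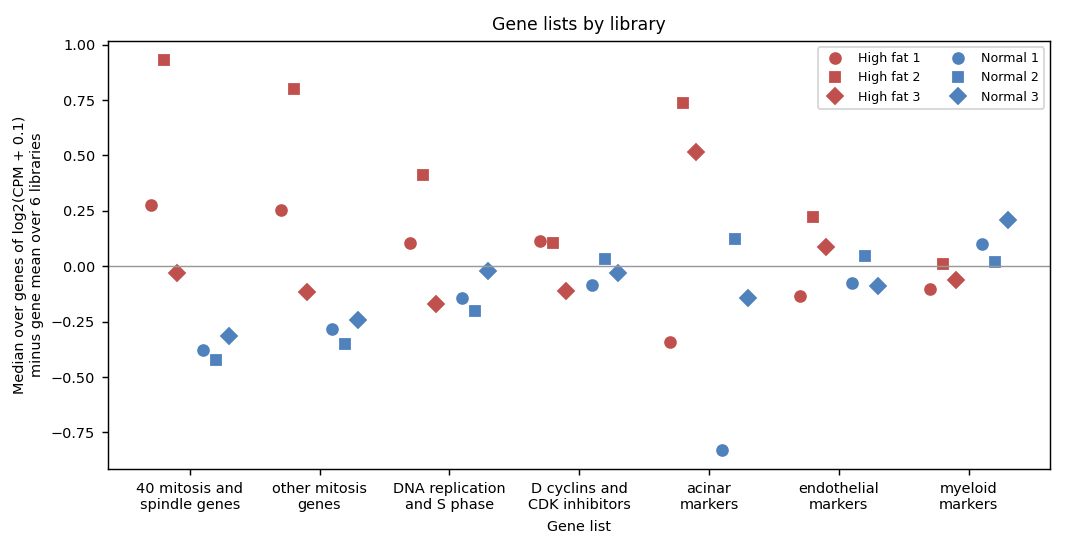
Median over the genes of each list of log2(CPM + 0.1) minus the gene's mean over 6 libraries, with high fat libraries left of normal diet libraries. High fat library 2 stands at 0.93 for the 40 mitosis genes and at 0.737 for acinar markers, and high fat library 3 at -0.0299 and 0.514.

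Markers of other cells that could carry mitotic RNA were read in the same libraries. Beside the marker counts in this paragraph and the next, edgeR called 5.95% of all loci higher and 4.86% lower. DESeq2 called 2242 higher and 1824 lower of 23983 loci. An unadjusted p under 0.05 was reached by 31.8% of all loci. Of 21 acinar markers 1, the trypsin gene Try5 (uncertain, since its family holds near-identical copies), rose by edgeR (log2 1.21, adjusted p = 0.028) and 0 fell, while DESeq2 called 6 higher. Their sum stood at 5126, 11070 and 8625 CPM in high fat libraries 1, 2 and 3, and at 3550, 6876 and 5983 CPM in normal diet libraries 1, 2 and 3. High fat library 2 was highest for both acinar markers and mitosis genes, whereas high fat library 1, second for mitosis genes, was below normal diet libraries 2 and 3 for acinar markers. With the acinar level as a covariate the median of the 40 was 0.705 and 0 passed by edgeR, a fit in which 0 of all loci passed. In that fit an unadjusted p under 0.05 was reached by 14 of the 40 and by 4469 of 23983 loci. The part of acinar cells in the difference was not tested beyond that fit.

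Of 10 endothelial markers 0 passed by edgeR or DESeq2 (1 at an unadjusted p under 0.05), and they summed to 500, 608 and 580 CPM in high fat libraries and 525, 567 and 493 CPM in normal diet libraries. Of 9 myeloid markers 1 fell and 0 rose by edgeR and by DESeq2, with sums of 164, 176 and 119 CPM in high fat libraries and 189, 183 and 196 CPM in normal diet libraries. Of 8 duct markers 0 passed by edgeR or DESeq2 (2 at an unadjusted p under 0.05), at 56.7, 80.4 and 68.9 CPM in high fat libraries and 61.2, 58.1 and 53.0 CPM in normal diet libraries. Of 12 stromal markers 2 rose and 1 fell. They summed to 446, 589 and 526 CPM in high fat libraries and 472, 371 and 421 CPM in normal diet libraries. High fat library 2 was highest for the endothelial, duct and stromal sums too. Gene by gene most stromal markers went the other way, with a median log2 fold change of -0.484 and 3 of the 12 above 0. By the median log2 deviation of the stromal list, normal diet libraries 1 and 3 (0.525 and 0.283) stood above high fat library 2 (0.252). Of 6 lymphocyte markers tested 0 passed by edgeR or DESeq2 (1 at an unadjusted p under 0.05), with the T-cell gene Cd3e, too low to test, at 0 to 0.0104 CPM in high fat libraries and 0 to 0.032 CPM in normal diet libraries. The erythroid list had 0 of 4 past the test by edgeR or DESeq2 and 0 at an unadjusted p under 0.05. Of 6 Schwann markers 3 fell, of 5 alpha-cell markers 3 fell, and of 9 beta-cell markers 3 rose. The part of these cells in the difference was not tested.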

How the data were processed

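Ribosomal RNA was removed and stranded paired-end libraries were made without poly(A) selection, per the labels' protocols. The authors deposited raw counts of reads per locus and assembled transcripts on mm9. The submitters' processing notes name edgeR, HTSeq 0.5.4p3, Cufflinks 2.1.1 and TopHat2 2.0.8, with no order or settings. Use of strand is not given in the sources used here. Loci were named by ordered exon and intron lengths matching GENCODE M21 (another build) on the same chromosome and strand, and no coordinates were converted. Loci sharing over 90% of exonic bases with another were left out.

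Counts were fitted in R 4.3.3 with edgeR 4.0.16 (filterByExpr, TMM, quasi-likelihood test for diet, two-sided, Benjamini-Hochberg over 23983 loci, threshold 0.05) and DESeq2 1.42.0 as an alternative, after tests on simulated data. The SE of a log2 fold change was taken as its size over the root of the F statistic. RPKM is CPM per kilobase of locus exon. The genes and lists were chosen with earlier results of these data known. Named are all 40 genes, with values by library for those past the threshold and the most abundant of each role, and up to 4 genes per other list. Members are called extended where the locus holds a second coding gene or spans over 1.1 times the reference gene. A further gene of the replication list is not reported here.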

Additional observations from a re-analysis of the deposited data

How the results depend on the processing

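Counts of calls depended on the processing, while the direction of the 40 mitosis genes did so for 2 of them. The 40 genes had 15 higher by the main test. DESeq2 gave 31 higher and RLE scaling 19, and 20 were higher with no filter on low counts. With library totals alone as scaling 6 were higher; that scaling moved the median of all loci from -0.0496 to -0.252, the median of the 40 to 0.684, and Kif15 and Ncapd2 to -0.0336 and -0.072, neither past the threshold. With a 1.5-fold minimum (chosen after the data were seen) 0 were higher by edgeR, and with the acinar covariate 0. Under the 1.5-fold minimum an unadjusted p under 0.05 was reached by 20 of the 40 and by 1486 of 23983 loci. Without the 6 genes sharing over 10% of exonic bases 14 of 34 were higher (median 0.91), and without the 7 on extended loci (also chosen later) 15 of 33 (median 0.924). Leaving out 1 library each gave 0 to 35 higher and 0 lower, with medians of 0.552 to 1.1.

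For all loci, against 1426 higher and 1165 lower, DESeq2 gave 2242 and 1824, library totals 300 and 3039, the 1.5-fold minimum 8 and 3, the acinar covariate 0 and 0, and single libraries left out 0 to 3075 and 0 to 1960. For the further mitosis genes, against 9, the higher count was 30 by DESeq2, 2 by library totals, 0 with the 1.5-fold minimum or the acinar covariate, and 0 to 39 with 1 library left out. For replication genes, against 3 higher and 1 lower, it was 7 higher by DESeq2, 1 higher and 3 lower by library totals, 0 and 0 with the 1.5-fold minimum or the acinar covariate, and 0 to 18 higher and 0 to 2 lower with 1 library left out.

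Replicate numbers showed no sign of pairing the samples. Over 23983 loci the same-numbered deviations correlated at -0.12, 0.0971 and -0.0503, and 0 of the 6 libraries correlated best with its own number. With 3 libraries per diet this check cannot exclude a pairing. With the replicate block 1 of the 40 was higher (Spc25, adjusted p = 0.049; median 0.831), 54 loci were higher and 20 lower, and 0 of the other mitosis genes and 0 and 0 of the replication genes passed. The causes of these shifts were not tested. A locus holds all its isoforms, so that levels per length are approximate. Copies of the genes elsewhere in the genome were not examined.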
